A study of Mus musculus with 12 samples.

Results

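The genes described here are 9 genes of the complement system measured in whole mouse heart. They are C3, Cfb and Cfp of the alternative pathway, C1qa, C1qb and C2 of the classical pathway, and the regulators Serping1, Cd55 and Cd59a. They were taken by name from the 12866 genes obtained when the Ensembl transcripts listed for all 12 libraries were assigned to genes (GENCODE M21, mouse build mm10) and summed. All 9 passed the limit on low values, at least 1 FPKM in at least 4 libraries, and were among the 11509 genes tested. C2 was below 1 FPKM in every Control library and passed this limit only through the LPS-treated groups.

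Hearts came from wild-type C57BL/6 mice in 3 groups of 4 libraries. LPS+XJDHT mice received lipopolysaccharide (LPS) at 10 mg/kg and XJDHT at 50 mg/kg per day, LPS mice received the same LPS dose and saline, and Control mice received saline in place of both agents, each over 3 days. LPS is the endotoxin carried by Gram-negative bacteria, and XJDHT is Xijiao Dihuang decoction, a herbal formula. The labels give neither the age nor the sex of the mice, so whether the mice of a group are matched for age is unknown here. Y-linked transcripts, given below, bear on sex.

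Complement is a set of plasma and membrane proteins that tag microbes and damaged cells and recruit inflammatory cells. The classical pathway starts when C1q, built of C1qa, C1qb and C1qc chains, binds antibody or other surface ligands and its partner proteases cleave C4 and C2. In the alternative pathway factor B, encoded by Cfb, pairs with activated C3 to form an enzyme that cleaves more C3, and properdin, encoded by Cfp, stabilises that enzyme. Serping1 encodes the C1 inhibitor, Cd55 a membrane protein that dissociates the C3-cleaving enzymes, and Cd59a a membrane protein that blocks the terminal pore. Much of the circulating complement comes from the liver, while macrophages are a main source of C1q, and many tissues make C3 and factor B during inflammation.

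The libraries each held 73.8 to 77.8 M fragments (M, mega), as recovered from the steps between low values and provided that the values are FPKM. Cardiomyocyte markers, 9 of 9 listed, summed to 7713 to 10910 FPKM in LPS+XJDHT, 8769 to 10960 in LPS and 20250 to 20950 in Control hearts, FPKM being fragments per kilobase of transcript, scaled to library depth. The library LPS+XJDHT 2 stood apart in Y-linked transcripts, with Ddx3y and Uty at 0 and Eif2s3y at 0.199 FPKM, while Eif2s3y lay between 10.3 and 32.6 FPKM in the other libraries. By these values LPS+XJDHT 2 reads as female and the other libraries as male. The LPS+XJDHT group thus appears not to be matched for sex. LPS+XJDHT 2 was also the lowest of its group in 7 of the 9 genes, and LPS 2 was the lowest of its group in 7 of 9, so results are given with and without these libraries where they change. LPS 2 was picked by the values of these same genes, and LPS+XJDHT 2 by these values and by its Y-linked transcripts. Leaving them out therefore raises the genes in which they are lowest, and calls added in this way are no independent support.

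Where the genes lie and what their start regions hold is shown first. Cfb (chr17:34856374-34862518) and C2 (chr17:34862604-34898265) are neighbours on the minus strand with 85 bases between them, and C3 lies on the same strand at chr17:57203970-57228136. C1qb and C1qa lie at chr4:136880129-136886187 and chr4:136895917-136898803 with C1qc between them. Serping1 lies at chr2:84765387-84775444, Cd59a at chr2:104095801-104115354, Cd55 at chr1:130439027-130462744 and Cfp at chrX:20925454-20931555. RefSeq (GRCm38.p6) gave a start region for 5 of the 9 genes, namely C3, Cfp, C1qb, Cd55 and Cd59a. The 250 bases before the start site are printed for C3, which rose with LPS, for Cfp, which rose less, and for Cd59a, which did not pass the test; capitals mark motif matches.
C3 (chr17:57228137-57228386, minus strand): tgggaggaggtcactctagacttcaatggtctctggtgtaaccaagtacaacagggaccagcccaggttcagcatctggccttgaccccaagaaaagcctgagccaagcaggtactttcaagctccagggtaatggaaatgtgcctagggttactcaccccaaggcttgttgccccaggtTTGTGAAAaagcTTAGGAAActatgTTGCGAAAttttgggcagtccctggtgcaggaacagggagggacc
Cfp (chrX:20931556-20931805, minus strand): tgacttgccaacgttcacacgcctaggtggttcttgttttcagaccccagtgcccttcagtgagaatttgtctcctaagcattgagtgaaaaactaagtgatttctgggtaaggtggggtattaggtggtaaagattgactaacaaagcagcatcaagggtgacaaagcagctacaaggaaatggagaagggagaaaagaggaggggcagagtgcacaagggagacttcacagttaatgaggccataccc
Cd59a (chr2:104095551-104095800, plus strand): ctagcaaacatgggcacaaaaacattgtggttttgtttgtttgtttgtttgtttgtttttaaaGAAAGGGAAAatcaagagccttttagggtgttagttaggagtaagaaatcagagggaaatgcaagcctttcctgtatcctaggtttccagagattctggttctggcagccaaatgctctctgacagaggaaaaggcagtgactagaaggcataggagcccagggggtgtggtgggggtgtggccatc

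Both strands of these windows were searched for 4 motifs of inflammatory transcription factors, chosen after the sequences had been seen. The C3 window held 3 matches to the C/EBP motif TTNNGNAA, at -70 to -63, -58 to -51 and -45 to -38 counted from the start site, none of them overlapping. That motif had at least 1 match in 36.8% of 32851 RefSeq start regions and 3 or more in 2.61%. The Cd59a window held 1 match to the ISRE motif GAAANNGAAA, found in 2.98% of start regions. The GAS motif TTCNNNGAA, in 7.02% of start regions, and the NF-kB motif, in 3.9%, had no match in any of the 5 windows, and Cfp, C1qb and Cd55 had no match to any of the 4 motifs. A match describes letters, not a bound site.

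The comparison of LPS with Control asks which complement genes LPS changes in the heart. Of the 9 genes 4 rose, Cfb, C3, C2 and Cfp, and none fell, at a limma adjusted p below 0.05. Among all 11509 genes tested 26.6% rose and 12% fell. In 4 of the 9 genes every LPS library was above every Control library, as in 25.3% of all genes. Without LPS 2, 7 of the 9 rose, the added genes being C1qa (log2 fold change 0.92, adjusted p = 0.0152), C1qb (0.80, adjusted p = 0.043) and Serping1 (1.39, adjusted p = 0.0359). LPS 2 had the lowest LPS value of each added gene, so leaving it out raised their means by construction. Of all 11509 genes 2958 rose without LPS 2. The comparison of LPS+XJDHT with Control asks the same of hearts that also received the decoction. Here 3 of the 9 rose, Cfb, C3 and C2, and none fell, beside 28.5% of all genes that rose and 10.7% that fell. In the same 3 genes every LPS+XJDHT library was above every Control library, as in 30.2% of all genes. The count that rose was 5 without LPS+XJDHT 2 and also 5 without LPS 2, in each case by the addition of Cfp and Serping1. LPS+XJDHT 2 had the lowest LPS+XJDHT value of both genes, so leaving it out raised their means by construction. Leaving out LPS 2 kept their fold changes and altered only the shared estimate of spread. Of all 11509 genes 2977 rose without LPS+XJDHT 2 and 3451 without LPS 2. Both comparisons with Control share the Control libraries. The median log2 fold change over the 9 genes was 0.74 for LPS+XJDHT, beside 0.19 over all genes tested, and 1.01 for LPS, beside 0.16 over all genes tested. With the median over all genes subtracted, the log2 fold changes for LPS were 5.39 for Cfb, 2.42 for C3, 1.76 for C2 and 1.23 for Cfp, and for LPS+XJDHT 5.24 for Cfb and 1.59 for C2. Dividing each library by its median ratio to the mean library turned the split of all calls from 3063 higher and 1384 lower to 2145 higher and 2112 lower for LPS against Control, and from 3278 and 1234 to 1967 and 2044 for LPS+XJDHT against Control. The 4 and 3 genes named above still passed under that scaling.

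**Figure D1:**
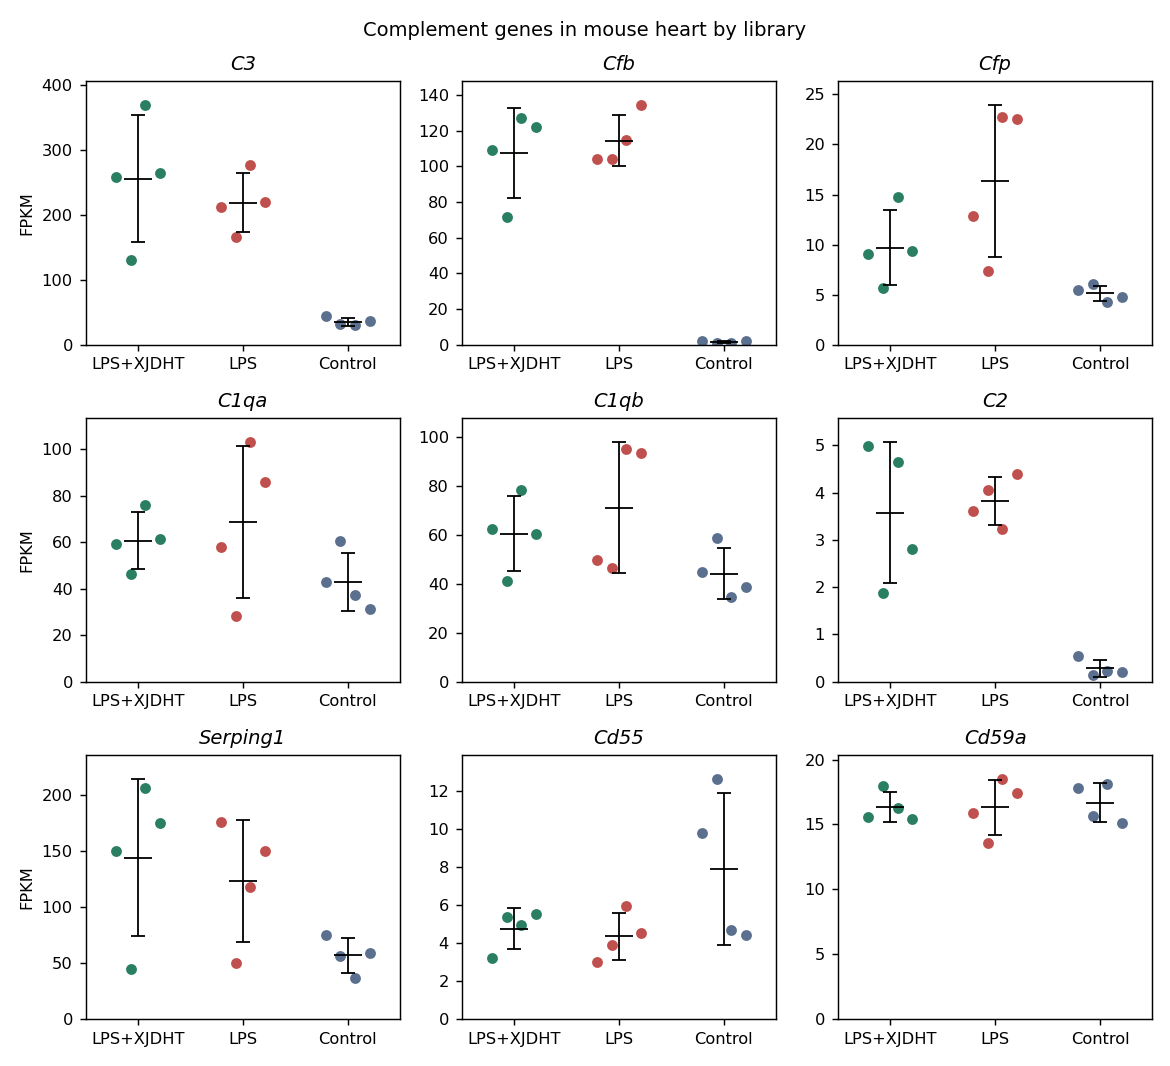
FPKM of each of the 9 complement genes in every library (points), with the group mean and SD (bars, n = 4 per group); each panel has its own linear axis starting at 0. C3, Cfb and C2 are above every Control library in all LPS+XJDHT and LPS libraries, while the groups overlap for C1qa, C1qb, Serping1, Cd55 and Cd59a.

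Cfb had the largest change of the 9 genes. It was measured at 109.3, 71.6, 127.1 and 122.1 FPKM in LPS+XJDHT hearts, at 104.2, 104.1, 114.9 and 134.4 FPKM in LPS hearts, and at 2.02, 1.03, 1.12 and 1.76 FPKM in Control hearts. No library of either LPS-treated group came near the Control range. The LPS+XJDHT mean was 72.5 times and the LPS mean 77.2 times the Control mean. On the log2(FPKM + 1) scale, which understates changes of low values, the log2 fold change was 5.44 ± 0.19 (SE; adjusted p = 8.36e-09) in LPS+XJDHT and 5.55 ± 0.19 (adjusted p = 6.59e-09) in LPS. Ranked by log2 fold change among the 11509 genes, Cfb was number 5 from the top in LPS+XJDHT and number 4 in LPS, while C3 was number 67 in LPS+XJDHT and number 98 in LPS.

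C3, the central component that all pathways cleave, was at 259.2, 130.3, 369.6 and 264.6 FPKM in LPS+XJDHT hearts. In LPS hearts it was at 212.6, 165.5, 276.5 and 220.5 FPKM, and in Control hearts at 43.6, 32.2, 29.6 and 36.5 FPKM. Every LPS+XJDHT and LPS library was above every Control library, and LPS+XJDHT 2 and LPS 2 were the lowest of their groups. The mean was 7.22 times that of Control in LPS+XJDHT and 6.17 times in LPS, with log2 fold changes of 2.74 ± 0.27 (SE; adjusted p = 2.14e-05) in LPS+XJDHT and 2.58 ± 0.27 (adjusted p = 3.15e-05) in LPS.

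Properdin, Cfp, was lower in level than C3 and Cfb in hearts of both LPS-treated groups. It measured 9.04, 5.66, 14.7 and 9.34 FPKM in LPS+XJDHT, 12.9, 7.34, 22.7 and 22.5 FPKM in LPS, and 5.43, 6.01, 4.31 and 4.78 FPKM in Control. All LPS libraries were above all Control libraries, whereas LPS+XJDHT 2 lay within the Control range. The log2 fold change in LPS+XJDHT was 0.74 ± 0.33 (SE; adjusted p = 0.0963), and 0.95 without LPS+XJDHT 2 (adjusted p = 0.0482). In LPS it was 1.39 ± 0.33 (adjusted p = 0.00634).

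In the Control heart the levels of the 9 genes ran, from high to low, Serping1 at 56.6, C1qb at 44.2, C1qa at 43.0, C3 at 35.5, Cd59a at 16.7, Cd55 at 7.89, Cfp at 5.13, Cfb at 1.48 and C2 at 0.282 FPKM (means, n = 4). Neighbours whose libraries did not overlap were C3 and Cd59a, Cd59a and Cd55, Cfp and Cfb, and Cfb and C2; the other neighbours overlapped. In hearts of both LPS-treated groups C3 stood highest, with Serping1 and Cfb next, though the ranges of these 3 genes overlapped from one to the next. In LPS hearts Cfb stood above C1qb and C1qa, with no overlap between Cfb and C1qb, whereas in Control hearts it was last but one. Summed over the 9 genes, FPKM was 364.4 to 896.8 in LPS+XJDHT, 423.2 to 757.4 in LPS and 166.4 to 242.4 in Control. C3 made up 35.8% to 41.2% of that sum in LPS+XJDHT, 30.1% to 39.1% in LPS and 13.3% to 19.0% in Control, while Cfb made up 14.2% to 19.6% in LPS+XJDHT, 15.2% to 24.6% in LPS and 0.425% to 0.918% in Control.

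C2, which supplies the protease of the classical and lectin C3-cleaving enzyme, was at 4.995, 1.87, 4.65 and 2.80 FPKM in LPS+XJDHT hearts. It was at 3.62, 4.06, 3.24 and 4.40 FPKM in LPS hearts and at 0.542, 0.151, 0.229 and 0.206 FPKM in Control hearts, where 30 to 108 fragments per library lie behind the values. No LPS+XJDHT or LPS library overlapped the Control range. C2 met the limit on low values only through these LPS-treated libraries, which favours such a separation and its call as a rise. The mean was 12.7 times that of Control in LPS+XJDHT and 13.6 times in LPS, ratios that rest on the low Control counts. On the log2(FPKM + 1) scale the log2 fold changes were 1.78 ± 0.22 (SE; adjusted p = 9.46e-05) in LPS+XJDHT and 1.92 ± 0.22 (adjusted p = 5.46e-05) in LPS.

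C1qa and C1qb encode chains of the recognition molecule of the classical pathway. C1qa was at 59.3, 46.2, 75.9 and 61.4 FPKM in LPS+XJDHT, 58.0, 28.5, 103.1 and 85.8 FPKM in LPS, and 43.0, 60.4, 37.3 and 31.4 FPKM in Control. C1qb was at 62.4, 41.0, 78.1 and 60.5 FPKM in LPS+XJDHT, 49.7, 46.5, 95.03 and 93.5 FPKM in LPS, and 44.7, 58.6, 34.6 and 38.9 FPKM in Control. LPS 3 and LPS 4 were highest of all libraries in both genes, and the groups overlapped. Neither gene passed: the log2 fold change of C1qa was 0.51 (adjusted p = 0.27) in LPS+XJDHT and 0.56 (adjusted p = 0.224) in LPS, and that of C1qb 0.44 (adjusted p = 0.232) in LPS+XJDHT and 0.62 (adjusted p = 0.0925) in LPS. Without LPS 2 both passed in LPS, as given above, and without LPS 3 the LPS value of C1qa was 0.32 (adjusted p = 0.487). The 95% intervals of these log2 fold changes against Control ran from -0.24 to 1.31 over both genes and both comparisons. That of C1qb in LPS, 0.03 to 1.22, lay above 0, with an unadjusted limma p of 0.0423.

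The C1qa to C1qb ratio was 0.951 to 1.13 in LPS+XJDHT, 0.613 to 1.17 in LPS and 0.806 to 1.08 in Control libraries, with the lowest value in LPS 2. The remaining chain, C1qc, measured 26.6 to 45.9 FPKM in LPS+XJDHT, 23.5 to 72.04 FPKM in LPS and 28.8 to 48.6 FPKM in Control, with log2 fold changes of 0.00 (adjusted p = 0.994) in LPS+XJDHT and 0.32 (adjusted p = 0.443) in LPS. Its ratio to C1qb was 0.538 to 0.649 in LPS+XJDHT, 0.506 to 0.758 in LPS and 0.749 to 0.842 in Control. Every LPS+XJDHT ratio was below every Control ratio, a difference seen in the values and not tested.

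**Figure D2:**
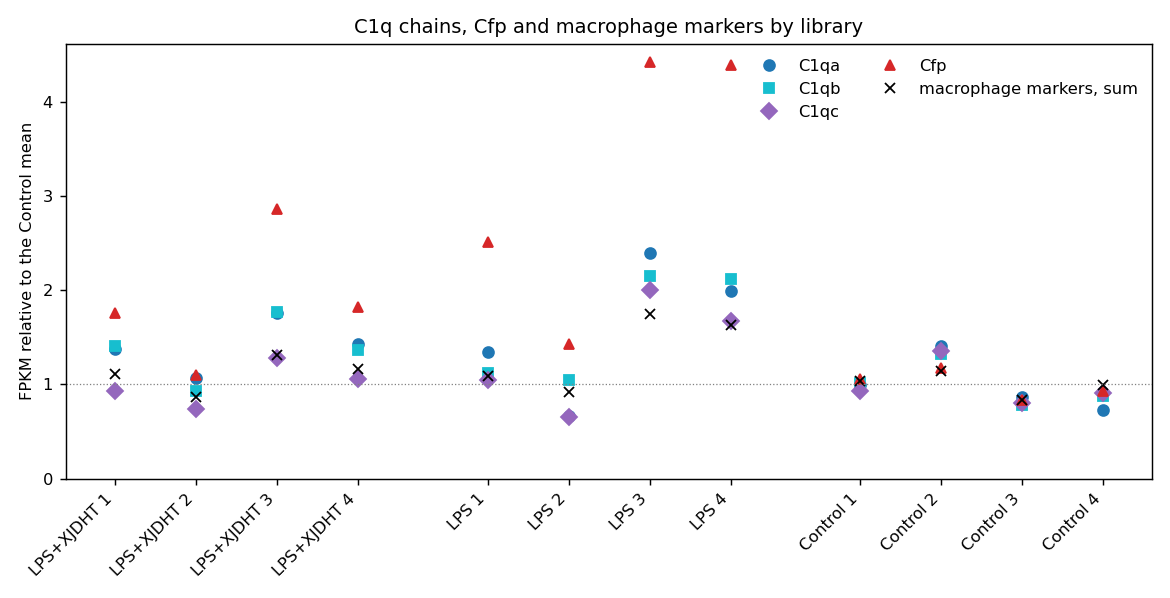
FPKM of C1qa, C1qb, C1qc and Cfp and the summed FPKM of 10 macrophage markers in each of the 12 libraries, each divided by its Control mean (dotted line at 1). The marker sum is highest in LPS 3 and LPS 4, at 148.6 and 138.4 FPKM, the libraries in which all 4 genes are also highest.

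Like C1qa, C1qb and Cfp, the summed macrophage markers were highest in LPS 3 and LPS 4, and within the LPS-treated groups they were lowest in LPS+XJDHT 2 and LPS 2. Of 12 markers in the list 10 were measured, and their summed level was 73.7 to 111.6 FPKM in LPS+XJDHT, 78.3 to 148.6 in LPS and 70.5 to 97.3 in Control. In LPS+XJDHT 2 of the 10 rose, Cd68 and Fcgr1, and 1 fell, Csf1r, beside 28.5% and 10.7% of all genes. In LPS 3 rose, Cd68, Fcgr1 and Cd14, and none fell, beside 26.6% and 12% of all genes, so the counts of single markers lie near those of all genes. No macrophage marker was at 0 in all libraries of a group, and their part in the levels of C1qa, C1qb and Cfp was not tested. In whole tissue fewer cells of a type and less RNA per cell cannot be told apart.

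Marker lists of other cell types are given beside the increases of Cfb, C3 and C2. Neutrophil markers, 7 of 9 listed, summed to 75.6 to 152.4 FPKM in LPS+XJDHT, 79.1 to 117.4 in LPS and 1.04 to 2.73 in Control, where Camp was at 0 in every library, and 5 of 5 tested rose in both LPS-treated groups. Monocyte markers, 5 of 6 listed, summed to 43.1 to 68.3 FPKM in LPS+XJDHT, 49.8 to 57.4 in LPS and 22.6 to 26.6 in Control, with 2 of 5 rising in each LPS-treated group. Fibroblast markers, 8 of 8 listed, summed to 862.9 to 1260 FPKM in LPS+XJDHT, 994.9 to 1159 in LPS and 832.5 to 1014 in Control; the groups overlap, and in each LPS-treated group 3 rose and 2 fell. Hepatocyte markers, with 3 of 8 listed, summed to 15.8 to 31.3 FPKM in LPS+XJDHT, 11.3 to 19.3 in LPS and 5.82 to 11.8 in Control, and Apoa1 was at 0 in every Control library; the defining genes Alb, Ttr and Fgb are not analysed here. Most of the hepatocyte sum was Ahsg, at 22.5 FPKM in LPS+XJDHT, 13.4 in LPS and 6.43 in Control. Small intestine markers, 4 of 6 listed, summed to 0.257 to 1.096 FPKM in LPS+XJDHT, 8.93 to 13.9 in LPS and 0.539 to 1.55 in Control. Erythroid markers, 5 of 6 listed, summed to 124.7 to 252.8 FPKM in LPS+XJDHT, 237.9 to 802.8 in LPS and 1275 to 1379 in Control, with 5 of 5 falling in LPS+XJDHT and 3 of 5 in LPS. Pericyte and smooth muscle markers, 7 of 7 listed, summed to 215.2 to 336.9 FPKM in LPS+XJDHT, 199.9 to 272.8 in LPS and 272.4 to 313.9 in Control, with 1 falling in LPS+XJDHT and 3 in LPS. Beside these counts of markers, 28.5% of all genes rose and 10.7% fell in LPS+XJDHT, and 26.6% rose and 12% fell in LPS. The part of any of these cell types in the complement values was not tested.

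None of the 3 regulators passed the test in either comparison with Control. Serping1, the C1 inhibitor, was at 150.0, 44.5, 205.5 and 175.1 FPKM in LPS+XJDHT, 175.3, 49.7, 117.5 and 149.5 FPKM in LPS, and 75.0, 55.7, 36.4 and 59.2 FPKM in Control. LPS+XJDHT 2 and LPS 2 lay within the Control range and the other LPS-treated libraries above it. The log2 fold change was 1.17 ± 0.49 (SE; adjusted p = 0.0771) in LPS+XJDHT and 1.01 ± 0.49 (adjusted p = 0.124) in LPS. Without LPS+XJDHT 2 the LPS+XJDHT value was 1.66 (adjusted p = 0.00691), and without LPS 2 the LPS value was 1.39 (adjusted p = 0.0359). The LPS value stayed at 1.01 but passed (adjusted p = 0.0438) when LPS+XJDHT 2 was left out of the shared estimate of spread.

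Cd55, the membrane protein that dissociates C3-cleaving enzymes, was at 3.19, 5.39, 4.96 and 5.51 FPKM in LPS+XJDHT, 3.02, 3.89, 5.96 and 4.53 FPKM in LPS, and 9.82, 12.6, 4.70 and 4.42 FPKM in Control. The Control libraries spread most, with Control 1 and Control 2 above all LPS-treated libraries and Control 3 and Control 4 among them. The log2 fold change was -0.53 (95% interval -1.19 to 0.12, adjusted p = 0.182) in LPS+XJDHT and -0.65 (-1.30 to 0.01, adjusted p = 0.108) in LPS. Without Control 4 the LPS value was -0.85 and passed (adjusted p = 0.0476), and without Control 2 it was -0.41 (adjusted p = 0.283). The LPS+XJDHT value without Control 2 was -0.29 (adjusted p = 0.451).

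Cd59a, the inhibitor of the membrane pore, had the narrowest spread of the 9 genes on the log2 scale over the 12 libraries. It measured 15.6, 18.0, 16.3 and 15.5 FPKM in LPS+XJDHT, 15.9, 13.6, 18.5 and 17.4 FPKM in LPS, and 17.8, 15.7, 18.1 and 15.1 FPKM in Control. The groups overlapped throughout. The log2 fold change was -0.03 in both comparisons, with 95% intervals of -0.26 to 0.21 (adjusted p = 0.869) in LPS+XJDHT and -0.27 to 0.20 (adjusted p = 0.84) in LPS.

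Neighbours of similar sequence may limit what can be read from the membrane regulators. The main Cd59a transcript, of 1691 bases, matched that of Cd59b at 89.7% of 687 aligned bases. That of Cd55, of 2533 bases, matched Cd55b at 93.6% of 1133 aligned bases. Fragments of such stretches may be split between the copies, which was not tested. Cd59b measured 1.04 FPKM in LPS+XJDHT, 1.32 in LPS and 2.09 in Control and did not pass in LPS+XJDHT (adjusted p = 0.149) or in LPS (adjusted p = 0.311). C2 overlaps Zbtb12 on the opposite strand and Cfb and C2 overlap a read-through model on their own strand, Gm20547, which is not among the genes analysed here. Whether the authors' counting used strand is not given in the sources used here.

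LPS+XJDHT hearts were compared with LPS hearts to ask what the decoction changes in LPS-treated mice. None of the 9 genes passed in either direction, and of all 11509 genes 0% rose and 0.113% fell by limma, 13 genes in all, with 551 genes at an unadjusted p below 0.05. All 3 tested small intestine markers and 1 of 3 tested hepatocyte markers were among those 13. The source of their RNA was not tested. The limma-voom method on recovered fragments called no gene higher and 14 lower. No gene of the 9 had groups that did not overlap, a separation found among all genes in 1.95% upward and 0.86% downward. Cfp differed most, at 9.69 ± 3.74 FPKM in LPS+XJDHT and 16.4 ± 7.57 FPKM in LPS (SD, n = 4 each), with a log2 fold change of -0.64 (95% interval -1.37 to 0.08, unadjusted p = 0.0769, adjusted p = 0.994). For Cfb the LPS+XJDHT mean was 107.5 ± 25.1 FPKM and the LPS mean 114.4 ± 14.2 FPKM, a log2 fold change of -0.11 with an interval of -0.53 to 0.30.

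For C3 the LPS+XJDHT mean was 256.0 ± 98.0 FPKM and the LPS mean 218.8 ± 45.5 FPKM, a log2 fold change of 0.16 with an interval of -0.44 to 0.75. C2 gave -0.13 (-0.61 to 0.34), C1qa -0.05 (-0.80 to 0.70) and C1qb -0.19 (-0.79 to 0.41). Among the regulators Serping1 had the widest interval, 0.16 (-0.91 to 1.23), followed by Cd55 at 0.12 (-0.54 to 0.77), and Cd59a the narrowest, 0.01 (-0.23 to 0.24). The adjusted p of these 8 genes, Cfb included, was 0.9999. Each interval gives the range of differences compatible with these libraries, and a p that misses the threshold does not show that the groups are alike.

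**Figure D3:**
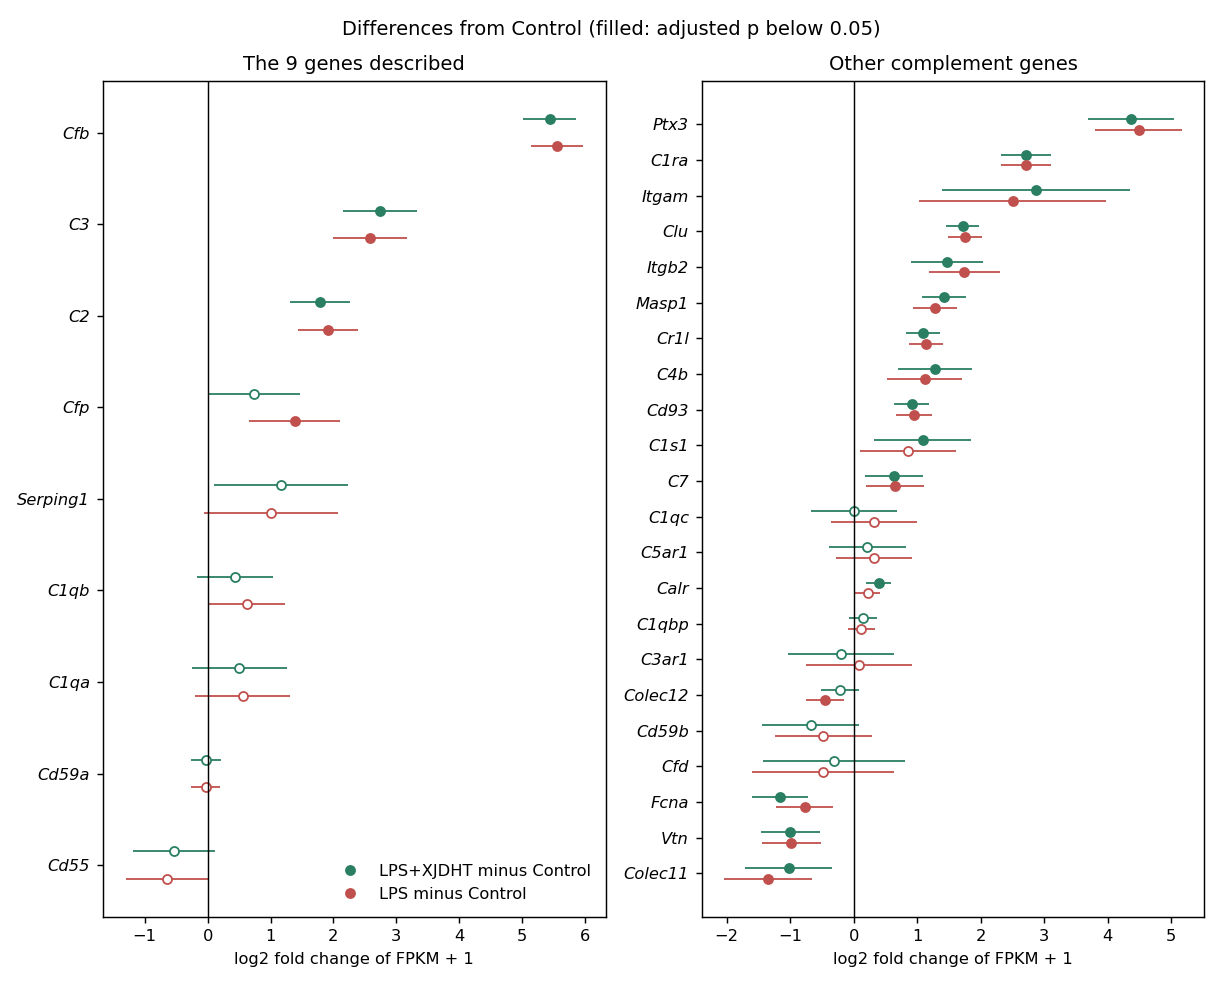
Log2 fold changes of FPKM + 1 against Control with 95% intervals, for LPS+XJDHT (upper of each pair) and LPS (lower), for the 9 genes (left) and 22 other complement genes (right); filled points passed at an adjusted p below 0.05. Cfb, at 5.44 in LPS+XJDHT and 5.55 in LPS, lies furthest from 0 on the left, and Ptx3, at 4.36 in LPS+XJDHT and 4.49 in LPS, on the right.

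Other genes of the complement system were taken from a list of 54, of which 26 were listed for all libraries and 23 tested. In LPS+XJDHT 12 of the 23 rose and 3 fell against Control, beside 28.5% of all genes that rose and 10.7% that fell. In LPS 10 rose and 4 fell, beside 26.6% and 12% of all genes. Their median log2 fold change was 0.53 in LPS+XJDHT, beside 0.19 over all genes, and 0.32 in LPS, beside 0.16. None passed between LPS+XJDHT and LPS.

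Of the recognition and protease genes, Ptx3, a pentraxin that binds C1q, was at 41.1 FPKM in LPS+XJDHT and 48.5 FPKM in LPS, against 1.05 FPKM in Control, with log2 fold changes of 4.36 in LPS+XJDHT and 4.49 in LPS. C1ra, a protease of the C1 complex, was at 42.3 FPKM in LPS+XJDHT and 41.3 FPKM in LPS, against 5.49 FPKM in Control, which gave 2.71 on the log2 scale in both comparisons. C1s1, its partner protease, passed in LPS+XJDHT (1.09, adjusted p = 0.0272) and not in LPS (0.85, adjusted p = 0.072). Masp1, a protease of the lectin pathway, rose by 1.43 in LPS+XJDHT and 1.28 in LPS on the log2 scale, and C4b, the substrate of C1s, by 1.28 in LPS+XJDHT and 1.12 in LPS. The lectin genes Colec11 (-1.03 in LPS+XJDHT, -1.34 in LPS) and Fcna (-1.16 in LPS+XJDHT, -0.77 in LPS) fell in both. Colec12 was at -0.22 in LPS+XJDHT (adjusted p = 0.24) and fell in LPS (-0.45, adjusted p = 0.0232).

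Among regulators and receptors, Clu, encoding clusterin, which binds the terminal complex, was at 837.4 FPKM in LPS+XJDHT and 863.1 FPKM in LPS, against 253.3 FPKM in Control, which gave 1.72 in LPS+XJDHT and 1.75 in LPS on the log2 scale. Cr1l, the mouse membrane regulator also called Crry, rose by 1.09 in LPS+XJDHT and 1.14 in LPS, the one of 2 tested membrane regulators outside the 9 that passed. Vtn, encoding vitronectin, fell by 0.99 in LPS+XJDHT and 0.98 in LPS on the log2 scale. Itgam and Itgb2, the chains of complement receptor 3, rose by 2.87 and 1.47 in LPS+XJDHT and by 2.50 and 1.74 in LPS. The Itgam values in LPS were uneven, at 3.00 to 60.3 FPKM, and overlapped the Control range of 2.28 to 4.35 FPKM. Neutrophils and macrophages carry this receptor, and the marker sums of both are given above. The receptors of the C3a and C5a fragments, C3ar1 and C5ar1, did not pass in either comparison. The terminal component C7 rose by 0.63 in LPS+XJDHT and 0.65 in LPS, and Cfd, the protease that activates factor B, did not pass (-0.31 in LPS+XJDHT, -0.48 in LPS).

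The Cfb values rest on 8 transcripts that share most of their bases. Cfb-206 carried the largest share of Cfb FPKM in LPS hearts, 53.4%, 38.5%, 57.3% and 59.2%, and was at 0 in every Control library. In LPS+XJDHT it carried 0%, 45.3%, 28.5% and 58.9%. LPS+XJDHT 1 instead had 105.9 FPKM on Cfb-201, where the LPS libraries had 14.3 to 16.7 FPKM. The exact two-sided permutation test of the share gave p = 0.0286 for LPS against Control, the smallest that 4 libraries against 4 allow, and 0.429 after adjustment over 15 such tests of transcript shares. Cfb-206 was taken as the leading transcript by its mean over all 12 libraries, which the LPS-treated groups alone supply. The tests of its share against Control thus reuse the values that picked it and give no support. Of the 2397 exonic bases of Cfb-206, 99.8% also lie in Cfb-201 and none is its own, so the division of fragments between these models rests on few bases, and the sum over the gene is the firmer value.

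**Figure D4:**
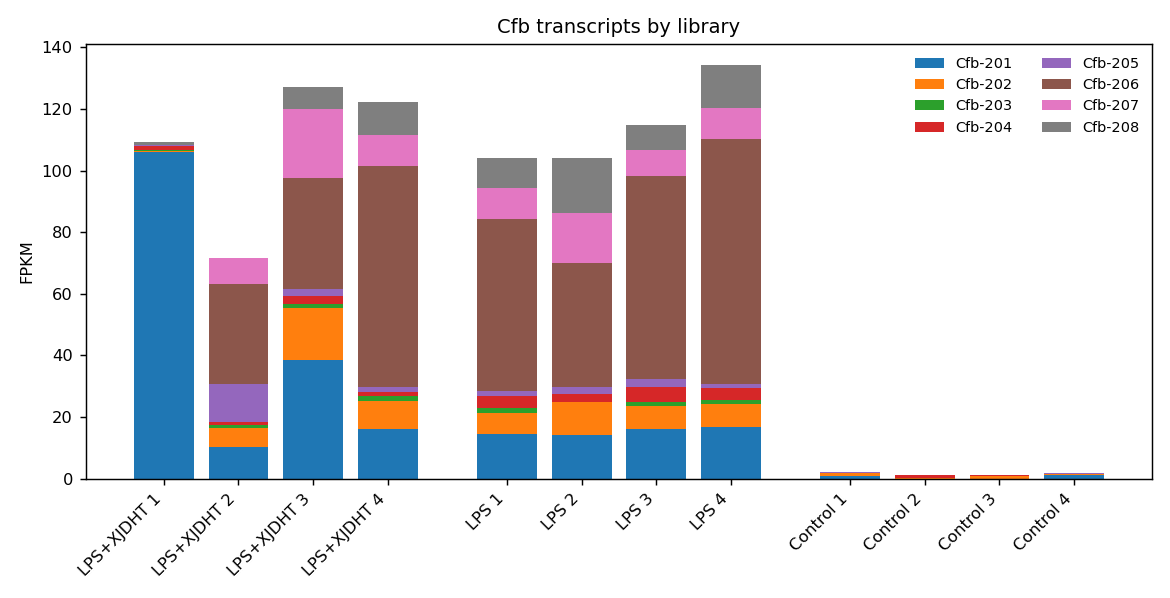
FPKM of the 8 listed Cfb transcripts, stacked, in each library. LPS+XJDHT 1 has 105.9 FPKM of Cfb-201 and none of Cfb-206, which has 40.0 to 79.5 FPKM in the LPS libraries, while the stacked totals of the LPS+XJDHT libraries (71.6 to 127.1 FPKM) overlap those of the LPS libraries (104.1 to 134.4 FPKM).

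Serping1 was split between the protein-coding Serping1-201 and the shorter Serping1-203, annotated as a processed transcript without a coding sequence. Serping1-201 was at 113.7, 25.4, 183.5 and 154.6 FPKM in LPS+XJDHT, 91.4, 49.1, 84.9 and 59.8 FPKM in LPS, and 53.9, 48.1, 29.9 and 53.7 FPKM in Control. Serping1-203 was at 36.4, 19.1, 22.0 and 20.5 FPKM in LPS+XJDHT, 84.0, 0.621, 32.6 and 89.7 FPKM in LPS, and 21.1, 7.64, 6.52 and 5.50 FPKM in Control. In LPS the share of Serping1-201 thus ran from 40.0% in LPS 4 to 98.8% in LPS 2. Counting protein-coding transcripts alone, the log2 fold change of Serping1 was 1.06 in LPS+XJDHT (adjusted p = 0.127) and 0.60 in LPS (adjusted p = 0.392). For the transcript shares of Serping1, Cd55, Cd59a and Cfp the smallest unadjusted exact permutation p was 0.143, and at 4 libraries against 4 a single share of the 15 could not pass after adjustment.

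**Figure D5:**
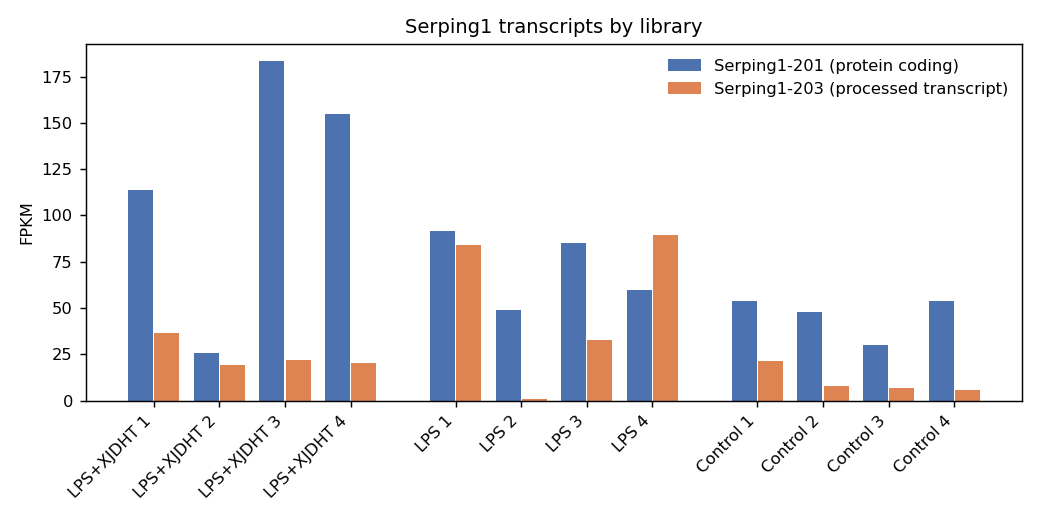
FPKM of Serping1-201 and Serping1-203 in each library. Serping1-203 has 84.0 and 89.7 FPKM in LPS 1 and LPS 4 but 0.621 FPKM in LPS 2, and Serping1-201 ranges from 25.4 to 183.5 FPKM in LPS+XJDHT.

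The genes whose pattern was most like each of the 9 were found by the root mean square difference of log2(FPKM + 1) over the 12 libraries, each gene centred on its own mean. For C3 they were C1ra (0.19) and Lbp (0.23), which encodes the LPS-binding protein, for Cfb Serpina3n (0.36), a protease inhibitor, and S100a8 (0.48), a neutrophil calcium-binding protein, and for C2 Rnf149 (0.19) and Tmem119 (0.20). The pattern of Cfp was nearest to Ctss (0.25), a lysosomal protease, and Tlr13 (0.27), a receptor for bacterial RNA. Among the genes nearest to C1qa was Clec4a3 (0.20), and among those nearest to C1qb was Lgmn (0.20), a lysosomal protease. For Serping1 they were Gsta3 (0.38) and D16Ertd472e (0.39). For Cd59a they were Cnih1 (0.08) and Pik3c2a (0.09), small differences beside a pattern that is itself only 0.12 in root mean square, against 1.31 for C3. Cnih1 and Pik3c2a had log2 fold changes between -0.01 and 0.05 against Control. For Cd55 they were Crip1 (0.24) and Chid1 (0.27).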

How the data were processed

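Per the labels' protocols, the 12 heart libraries were made from total RNA after removal of rRNA. The deposited files give FPKM per transcript, a unit read from the values, since multiplying by transcript length gave whole fragments within 0.1 for 98.1% to 98.5% of values. The submitters' processing notes name mm10 and limma, with no role stated; the tools for alignment and quantification are not given in the sources. The files of the Control and LPS libraries list 36293 transcripts and those of LPS+XJDHT 35802, and only the 33137 in both were used, 24723 of them annotated in GENCODE M21. FPKM was summed per gene, and log2(FPKM + 1) of every gene that reached 1 FPKM in 4 or more libraries was tested with limma 3.58.1 in R 4.3.3 (empirical Bayes with trend, 1 mean per group, two-sided, Benjamini-Hochberg over all genes tested), after a check on simulated data. Transcript shares were tested by exact permutation, for the leading transcript of a gene, the one with the highest mean over all 12 libraries.

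The members and lists were chosen with earlier results of these data known. All 9 members are named, other complement genes by list, and the 2 nearest genes of each member, apart from genes not reported here. The labels do not say that each library is a separate animal, so p-values measure only the spread between libraries, which may be technical. The groups were taken from the labels, and marker lists of 13 tissues or cell types were summed as a check. Alternatives were 9 other settings and leaving out each library.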

Additional observations from a re-analysis of the deposited data

Results flagged for a closer look

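Cd55-201 made up 56.2% of Cd55 FPKM in Control 3, far below the other Control libraries, of which the highest had 88.0%. In the rest of that gene's FPKM the retained-intron transcript Cd55-205 is counted. Of 42 groups of 4 libraries examined this was the 1 with a library so far apart, and chance marks about 1 in 20 groups.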

How the results depend on the processing

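No paired analysis was possible because the replicate numbers follow the order of accession and the labels tie no libraries to each other. The alternative on read-through transcripts was not run, since the read-through model is not among the transcripts used. Of 573 values of member log2 fold changes under the alternatives, 537 kept direction and side of the threshold, 15 passed where they had not, and 21 changed sign, none in a comparison where the gene was called.

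With sample quality weights 5 of the 9 genes rose in LPS+XJDHT (adding Cfp and Serping1) and 7 in LPS (adding C1qa, C1qb and Serping1). Under these weights 3781 of all 11509 genes rose in LPS+XJDHT and 3148 in LPS. Leaving out single libraries gave 3 to 5 in LPS+XJDHT and 4 to 7 in LPS, and 0 to 1 falling in LPS. Of all 11509 genes 2667 to 3451 then rose in LPS+XJDHT and 2571 to 3123 in LPS, and 1141 to 1495 fell in LPS. With at least 5 FPKM required C2 was no longer tested. Of the remaining members 2 rose in LPS+XJDHT and 3 in LPS, beside 2422 and 2290 of all 6647 genes then tested. Of the 18 other complement genes still tested 1 fell in LPS+XJDHT and 2 in LPS, in place of 3 and 4. Among all 6647 genes 877 fell in LPS+XJDHT and 939 in LPS.

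Cd59a changed sign at values near 0. In LPS against Control it was 0.0013 with weights and -0.091 to 0.048 without single libraries, and in LPS+XJDHT against Control -0.071 to 0.012. Over the settings other than leaving out libraries it went down to -0.22 in LPS and -0.26 in LPS+XJDHT. The lowest limma adjusted p of these settings was 0.132 in LPS and 0.0832 in LPS+XJDHT. In LPS+XJDHT against LPS it was -0.040 with median-ratio scaling, -0.057 with weights, -0.0076 with limma-voom, -0.017 with protein-coding transcripts and -0.075 to 0.064 without single libraries. In that comparison leaving out libraries also gave C3 -0.052 to 0.45, Cfb -0.21 to 0.067, C1qa -0.42 to 0.19, C2 -0.28 to 0.069, Serping1 -0.22 to 0.65 and Cd55 -0.013 to 0.26.

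Differences in the percentage share of the leading transcript ranged without single libraries from -3.30 to 7.33 for Cd55 in LPS against Control and -8.34 to 2.29 in LPS+XJDHT against Control, from -0.73 to 0.0064 for Cd59a in LPS against Control, from -3.25 to 0.92 for Cfp in LPS against Control and -3.15 to 0.18 in LPS+XJDHT against LPS, and from -9.02 to 1.72 for Serping1 in LPS+XJDHT against Control. The cause of these changes was not tested. Depth limits C2 and Cfb in Control, at 30 to 108 and 83 to 380 fragments.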
